A study of Mus musculus with 16 samples.

Results

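The line of mouse embryonic fibroblasts (MEFs) named Cl_3 was compared with the fibroblast line named Ctrl_1 across all transfer RNAs. The members are 4 of the 16 libraries of the series, 2 of Cl_3 and 2 of Ctrl_1, taken by the line in their sample titles, and every tRNA of their count table was used. The series is about base editors that correct a mitochondrial DNA mutation affecting tRNA-Ala, and it also holds 8 libraries of mouse hearts, not analysed here. Total RNA was kept under mildly acidic conditions, treated by oxidation and beta-elimination, and sequenced by mim-tRNAseq, a method that reads tRNAs at full length. The labels give 2 cell passages for each of 4 MEF lines, Ctrl_1, Cl_1, Cl_2 and Cl_3. They give no genotype, editing state, treatment or age for any line and do not spell out Ctrl or Cl. Each line is a single culture lineage, so a difference between Cl_3 and Ctrl_1 and a difference between any pair of lines cannot be told apart, and p-values measure the spread between passages. The table holds tRNAs only, so the fibroblast label could not be set against marker genes.

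Transfer RNAs carry amino acids to the ribosome and read codons through their anticodon. In the nuclear genome most anticodons are encoded by several genes whose tRNAs differ elsewhere in the sequence; such tRNAs are isodecoders, and the last number of a name tells them apart, as in tRNA-Lys-TTT-1 and tRNA-Lys-TTT-2. Mitochondria use a small set of their own tRNAs, encoded on both strands of the mitochondrial DNA, and these are cut out of long transcripts that run along each strand.

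The Ctrl_1 libraries held 3275140 and 4375975 counts and the Cl_3 libraries 3081102 and 3266170. The 4 other MEF libraries held between 1473330 and 3454444. The table lists 819 tRNAs, of which 22 are mitochondrial, 265 nuclear and 532 are predicted tRNA-like genes with the prefix tRX. A filter on low counts left 201 transcripts (22 mitochondrial, 175 nuclear and 4 tRX), and a rare transcript could pass it through the line in which it was high. Levels are given in CPM, which are counts divided by the scaled library total and set on a common depth, scaled by TMM, which sets the bulk of transcripts equal between libraries; they are not divided by length. Reads from near-identical isodecoders may have been assigned to a neighbour, so the level of a single isodecoder is less certain than the sum over its anticodon. In bulk RNA, fewer cells of a kind and less RNA per cell cannot be told apart. The 2 passages differed by a median of 0.109 on the log2 scale in Ctrl_1 and 0.104 in Cl_3.

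Of the 201 transcripts, 102 differed between the lines (50.7%): 53 were higher in Cl_3 than in Ctrl_1 (26.4%) and 49 lower (24.4%) at an adjusted p under 0.05 in edgeR's quasi-likelihood test. With all libraries, mitochondrial tRNAs passed the threshold downwards only, nuclear isodecoders in both directions, and the 4 tRX transcripts did not pass. Without replicate 2 of Cl_3, 62 transcripts passed, 30 higher and 32 lower. In all 102 the libraries of the lines did not overlap, and 147 of the 201 transcripts had no overlap in one direction or the other (37.8% higher, 35.3% lower). A change of more than 2-fold was seen in 20 of the higher and 7 of the lower transcripts. The balance of directions depends on the scaling. Set on library totals, which moves the median of all transcripts from 0.0013 to 0.14 on the log2 scale, 70 were higher and 30 lower, and with TMM over nuclear tRNAs alone 44 were higher and 58 lower.

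mt-tRNA-Ala, the tRNA that the series targets and the one that delivers alanine in mitochondrial translation, was 4.52-fold lower in Cl_3. It stood at 588 and 456 CPM in Ctrl_1 and at 127 and 104 CPM in Cl_3, from 1798 and 1921 counts against 403 and 359. Both Cl_3 libraries lay far below both Ctrl_1 libraries. The log2 change was -2.18 (SE 0.22, adjusted p = 2.67e-04 by edgeR). Its share of all mitochondrial tRNA counts, which does not depend on scaling between libraries, was 1.47% and 1.29% in Ctrl_1 and 0.546% and 0.422% in Cl_3. The 95% Wilson intervals, which cover counting error only, ran from 1.40% to 1.54% and 1.23% to 1.35% in Ctrl_1 and from 0.496% to 0.602% and 0.380% to 0.467% in Cl_3. The mean share was 1.38% ± 0.127 in Ctrl_1 and 0.484% ± 0.0881 in Cl_3 (SD, n = 2 each), and with 2 libraries against 2 the exact two-sided permutation p of 0.333 is the smallest possible.

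Of the 22 mitochondrial tRNAs, 14 were lower in Cl_3 and 0 higher, with a median log2 change of -0.81. They took 3.74% and 3.41% of all counts in Ctrl_1 and 2.39% and 2.61% in Cl_3 (means 3.57% ± 0.234 and 2.50% ± 0.150, SD, n = 2 each). All tRNA counts of a library add up to a fixed sum, and the exact two-sided permutation p was again 0.333, the smallest possible. The fall was spread unevenly over the strands of the mitochondrial DNA. Among 14 tRNAs encoded opposite to mt-tRNA-Ala, 12 were lower, with a median of -0.87. Of the 7 others on its own strand only mt-tRNA-Tyr was lower, and their median was 0.27. The neighbours of the mt-tRNA-Ala gene were split: Trp, on the other strand, and Tyr were lower, while Asn and Cys did not pass. The other Cl lines showed a similar fall against the same control libraries. In each, 11 of the 22 were lower and 0 higher, with medians of -0.56 in Cl_1 and -0.62 in Cl_2. Over all transcripts 18.9% were lower in Cl_1 and 20.4% in Cl_2. Of the 14 on the opposite strand 9 were lower in each. Mitochondrial tRNAs took a mean of 2.57% of all counts in Cl_1 and 2.56% in Cl_2.

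Phenylalanine, whose tRNA gene opens the long transcript of its strand, had the deepest fall after alanine. mt-tRNA-Phe was at 6107 and 5391 CPM in Ctrl_1 and at 1975 and 2227 CPM in Cl_3, with no overlap. The log2 change was -1.45 (SE 0.12, adjusted p = 1.33e-04 by edgeR). mt-tRNA-Leu-TAG, which reads the CUN leucine codons, was at 1272 and 1133 CPM against 520.0 and 538 CPM (log2 change -1.18, SE 0.24, adjusted p = 0.00586 by edgeR). mt-tRNA-Thr stood at 905 and 840.5 CPM against 442 and 425 CPM (-1.01, SE 0.18, adjusted p = 0.00388 by edgeR). In these 3 tRNAs each line's passages lay close together and far from the other line. mt-tRNA-His stood at 2637 and 2319 CPM against 1259 and 1385 CPM (-0.91, SE 0.12, adjusted p = 0.00108 by edgeR). mt-tRNA-Met, the only mitochondrial methionine tRNA, which serves both starts and inner positions of proteins, was at 2243 and 2019 CPM against 1221 and 1362 CPM (-0.72, SE 0.16, adjusted p = 0.00787 by edgeR). The others past the threshold on that strand were Gly (-1.12), Trp (-0.96), Arg (-0.83), Asp (-0.81), Ile (-0.81), Val (-0.81) and Leu-TAA (-0.69), with adjusted p from 0.00388 to 0.0498 in edgeR. Without replicate 1 of Cl_3, the calls for Ala, Arg, His, Leu-TAA, Leu-TAG, Phe and Thr were kept and the other 7 of the 14 lost; without replicate 1 of Ctrl_1, Tyr and Val were lost too. The calls for Asp and Gly were lost without any single library of the 2 lines. mt-tRNA-Lys (-0.24) and mt-tRNA-Ser-GCT (-1.19) did not pass. Without replicate 2 of Ctrl_1 mt-tRNA-Lys passed as lower (-0.63), and without replicate 1 it was at 0.29; mt-tRNA-Ser-GCT passed without replicate 1 of Cl_3 (-2.77). The Ser-GCT tRNA, which lacks a full D arm, was thinly counted, at 151 and 99 counts in Ctrl_1 and 85 and 18 in Cl_3.

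On the strand of mt-tRNA-Ala most members were level or above. mt-tRNA-Glu was at 602 and 1168 CPM in Ctrl_1 and 1337 and 1414 CPM in Cl_3 (log2 difference 0.64, 95% interval -0.12 to 1.39, adjusted p = 0.134 by edgeR). mt-tRNA-Asn was at 323 and 373 CPM against 599.9 and 474 CPM (0.62, 95% interval -0.09 to 1.34, adjusted p = 0.124 by edgeR). In both, the Cl_3 libraries lay above the Ctrl_1 libraries without passing the test. The Ctrl_1 libraries of mt-tRNA-Glu lay far apart: without replicate 2 of Ctrl_1 it passed as higher (1.19, adjusted p = 0.0156 by edgeR), and without replicate 1 it was at 0.24. mt-tRNA-Pro (0.32), mt-tRNA-Gln (0.27), mt-tRNA-Cys (0.14) and mt-tRNA-Ser-TGA (-0.05) did not pass either. mt-tRNA-Tyr fell from 2363 and 2257 CPM to 1663 and 1840.3 CPM (-0.40, SE 0.09, adjusted p = 0.011 by edgeR).

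**Figure D1:**
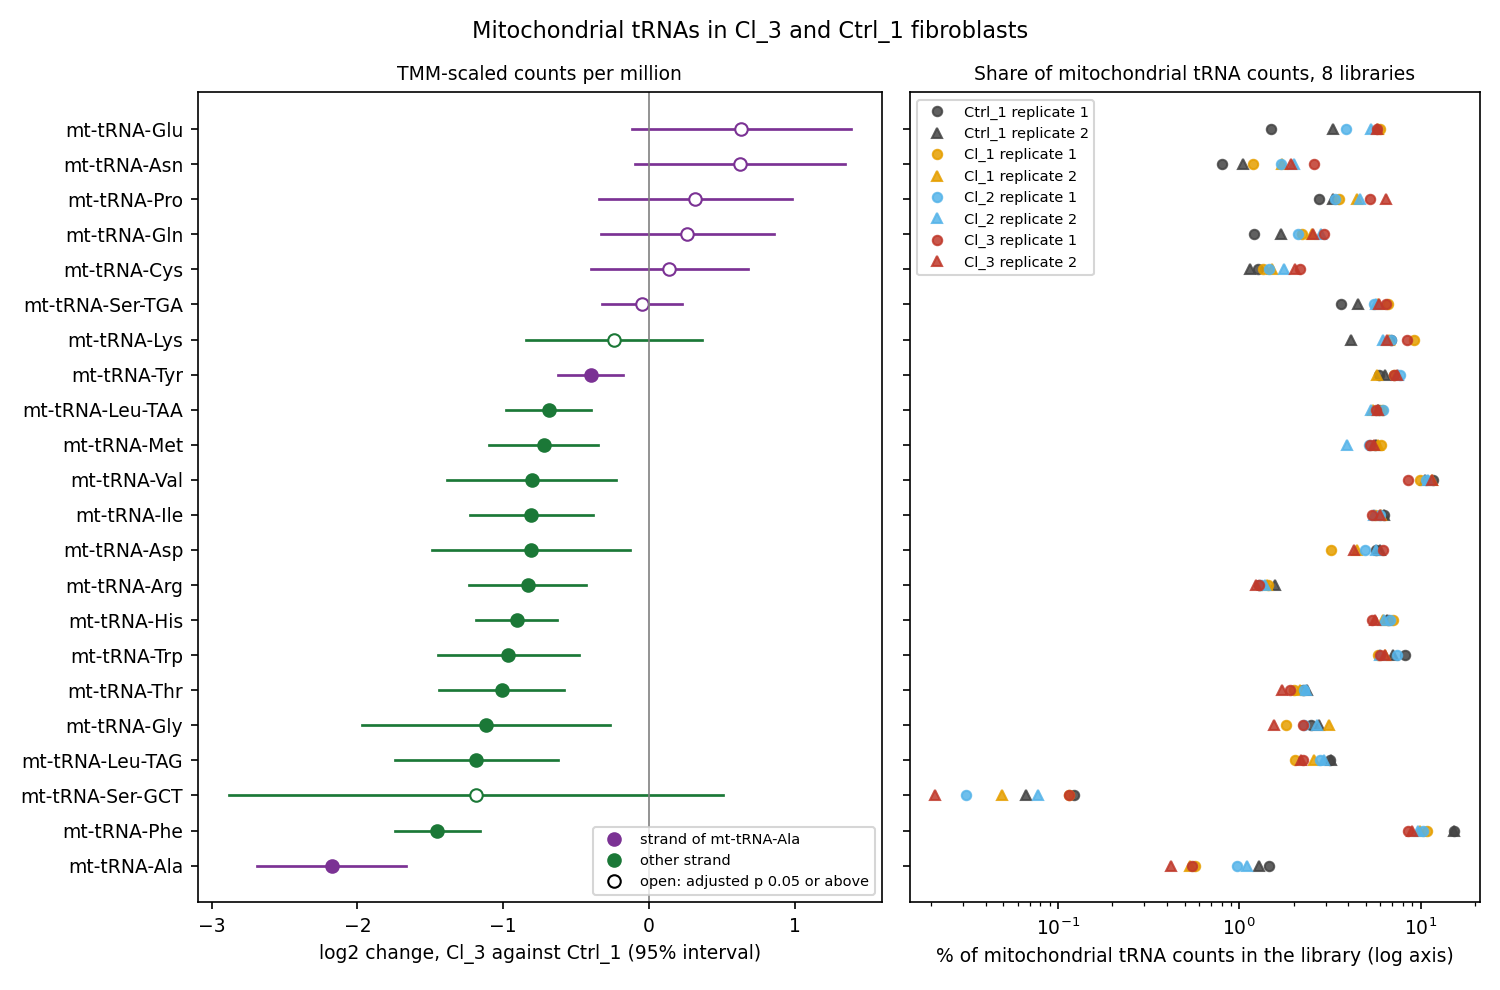
The left panel plots the log2 change of each mitochondrial tRNA in Cl_3 against Ctrl_1 with its 95% interval from edgeR, coloured by strand, with filled points past the threshold; the right panel plots each tRNA's share of mitochondrial tRNA counts in the 8 fibroblast libraries on a log axis. mt-tRNA-Ala and mt-tRNA-Phe lie furthest left, while the strand of mt-tRNA-Ala holds all 5 tRNAs with a change above 0.

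Shares of mitochondrial tRNA counts showed the same division with no scaling between libraries. Of the 22 shares, 7 were higher in both Cl_3 libraries than in both Ctrl_1 libraries (31.8%) and 11 lower (50.0%). The 7 higher ones were all the tRNAs on the strand of mt-tRNA-Ala other than Ala itself, and 10 of the 14 on the other strand were lower, with 4 overlapping. Shares add up to a fixed sum, so they are not independent of each other. The 7 tRNAs together made up 17.1% and 21.4% of mitochondrial tRNA counts in Ctrl_1 and 32.4% and 32.1% in Cl_3. In Cl_1 the same sum was 28.0% and 27.7%, and in Cl_2 25.8% and 29.7%, so both Cl_3 libraries were above the 6 others. Of the 7 single shares, 2 were above all Cl_1 and Cl_2 libraries and 5 overlapped them. In TMM-scaled counts 0 of the 7 passed in Cl_3 against the mean of Cl_1 and Cl_2 in edgeR (median log2 difference 0.07). mt-tRNA-Phe took 15.3% and 15.2% in Ctrl_1 and 8.52% and 9.02% in Cl_3. With all libraries scaled on the mitochondrial tRNAs other than Ala, Asn (1.26), Glu (1.25), Pro (0.95), Gln (0.90), Cys (0.79) and Ser-TGA (0.59) were higher in Cl_3 and Ala (-1.52), Phe (-0.81) and Leu-TAG (-0.54) lower, all past the threshold in edgeR, so whether tRNAs of the Ala strand count as level or higher rests on what is held constant.

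Nuclear tRNAs, which serve cytosolic translation, moved according to how abundant they were. Of 175 tested, 53 were higher in Cl_3 and 35 lower, with a median log2 change of 0.03. Ranked by mean CPM over the 8 libraries and cut into 3 groups, the 59 rarest held 23 higher and 2 lower transcripts (median 0.43). The 58 in the middle held 25 higher and 7 lower (median 0.19), and the 58 most abundant held 5 higher and 26 lower (median -0.18). The order of the medians was the same with RLE or nuclear TMM scaling, with DESeq2 and without any single library. On library totals the most abundant group held 11 higher and 12 lower, with a median of -0.04. The other Cl lines were split likewise against the same control libraries. In Cl_1 the rarest group held 11 higher and 7 lower (median 0.08), the middle 13 and 10 (0.13) and the most abundant 6 and 10 (-0.09). In Cl_2 the groups held 18 and 2 (0.16), 26 and 7 (0.27), and 8 and 21 (-0.11). In both lines the middle group thus had the highest median. Over all transcripts 14.9% were higher and 18.9% lower in Cl_1, and 25.9% and 20.4% in Cl_2.

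**Figure D2:**
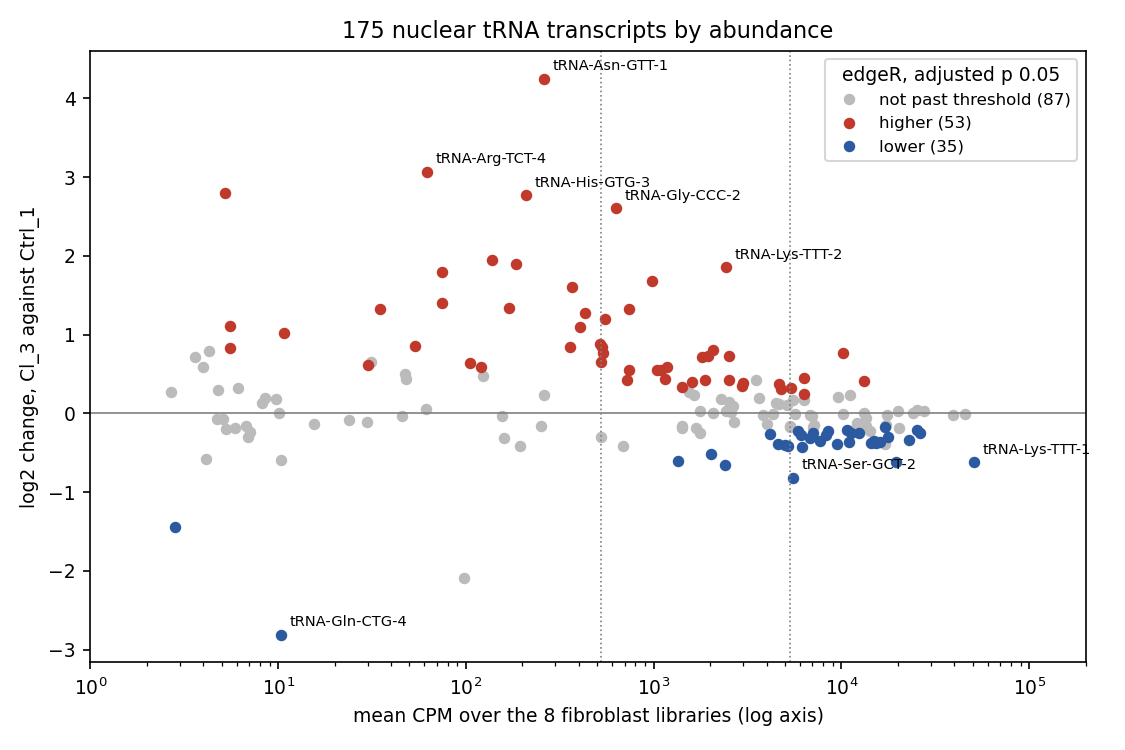
Each point is a nuclear tRNA transcript, with its mean level over the 8 fibroblast libraries on a log axis and its log2 change in Cl_3 against Ctrl_1; colours give the call and dotted lines part the 3 abundance groups. Red points (53 higher) gather left of the upper dotted line and blue points (35 lower) gather right of it.

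Among transcripts with a mean of at least 10 CPM over the 8 libraries, those that rose most were minor isodecoders. tRNA-Asn-GTT-1, an asparagine tRNA, was at 27.8 and 24.0 CPM in Ctrl_1 and 403 and 581 CPM in Cl_3, a 19.0-fold rise (log2 change 4.25, SE 0.26, adjusted p = 9.17e-05 by edgeR). tRNA-Arg-TCT-4, which reads the AGA codon of arginine, was at 9.48 and 13.5 CPM against 82.4 and 113 CPM (3.07, SE 0.31, adjusted p = 2.67e-04 by edgeR). tRNA-His-GTG-3, a histidine tRNA, was at 48.4 and 48.9 CPM against 310.3 and 356 CPM (2.77, SE 0.19, adjusted p = 9.17e-05 by edgeR). In each of these the lines were far apart and the passages of Cl_3 differed by less than 2-fold. All 3 tested minor isodecoders of the glycine anticodon CCC were higher in Cl_3. tRNA-Gly-CCC-2 was at 189 and 190.4 CPM against 1018 and 1293 CPM (2.61, SE 0.20, adjusted p = 9.25e-05 by edgeR), and tRNA-Gly-CCC-3 at 433 and 443 CPM against 1256 and 1562 CPM (1.69, SE 0.16, adjusted p = 2.15e-04 by edgeR). The rarest of them, tRNA-Gly-CCC-4, was at 19.3 and 19.0 CPM against 43.4 and 52.5 CPM (1.32, SE 0.21, adjusted p = 0.00215 by edgeR). tRNA-Ala-TGC-6 was at 45.1 and 39.7 CPM against 157 and 169 CPM (1.94, SE 0.17, adjusted p = 1.33e-04 by edgeR). The last 2 of this list, a cysteine and a lysine tRNA, had the same adjusted p of 9.25e-05 in edgeR. tRNA-Cys-GCA-4 was at 74.5 and 71.9 CPM against 272 and 275 CPM (1.90, SE 0.15), and tRNA-Lys-TTT-2 at 1328 and 1116 CPM against 3954 and 4921 CPM (1.86, SE 0.15). Several of these rises were shared. Against the same control libraries tRNA-Asn-GTT-1 (2.60 and 3.82), tRNA-His-GTG-3 (1.92 and 2.48) and tRNA-Cys-GCA-4 (0.92 and 1.78) also passed as higher in Cl_1 and Cl_2. So did tRNA-Gly-CCC-2 (0.70 and 2.18) and tRNA-Gly-CCC-3 (1.01 and 1.45). tRNA-Lys-TTT-2 was level in Cl_1 (0.01) and higher in Cl_2 (1.21).

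Falls were shallower and were mostly seen in abundant isodecoders. tRNA-Lys-TTT-1, the main lysine tRNA for AAA codons and the transcript with the highest mean CPM of all nuclear tRNAs, was at 73254 and 67709 CPM in Ctrl_1 and 45172 and 46738 CPM in Cl_3. Its libraries did not overlap, and the log2 change was -0.62 (SE 0.09, adjusted p = 0.00162 by edgeR). tRNA-His-GTG-2 was at 26680.4 and 25806 CPM against 17845 and 16513 CPM (-0.61, SE 0.07, adjusted p = 6.77e-04 by edgeR). tRNA-Ser-GCT-2, a serine tRNA, was at 7747 and 7581 CPM against 4643 and 4061 CPM (-0.82, SE 0.09, adjusted p = 5.99e-04 by edgeR). For both, the gap between the lines was far wider than that between passages. tRNA-Leu-TAA-1 (-0.66), tRNA-Gln-TTG-1 (-0.51), tRNA-Glu-TTC-2 (-0.39) and tRNA-Thr-TGT-3/2, a pair of isodecoders counted together (-0.38), fell with adjusted p from 0.00109 to 0.00215 in edgeR. The deepest fall was of a rare one: tRNA-Gln-CTG-4 was at 24.8 and 26.4 CPM in Ctrl_1 and 3.77 and 3.48 CPM in Cl_3, from 76 and 111 counts against 12 and 12. Its log2 change was -2.81 (SE 0.20, adjusted p = 9.25e-05 by edgeR).

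Of the 6 nuclear tRNAs with the highest mean CPM, 3 passed the threshold, all lower: tRNA-Lys-TTT-1, tRNA-Gln-CTG-2 (-0.24, adjusted p = 0.0338 by edgeR) and tRNA-Phe-GAA-1 (-0.21, adjusted p = 0.028 by edgeR). The last 2 missed it on library totals (-0.10 and -0.07). tRNA-Phe-GAA-1 also missed it without any single library of the 2 lines, and tRNA-Gln-CTG-2 without any but replicate 2 of Ctrl_1. tRNA-Ile-AAT-1 was at 44839 and 43165 CPM in Ctrl_1 and 44406 and 43153 CPM in Cl_3 (log2 difference -0.01, 95% interval -0.16 to 0.14). tRNA-Asn-GTT-3 (-0.02) and tRNA-Lys-CTT-3 (0.03), the main asparagine tRNA and the main lysine tRNA for AAG codons, did not pass either. On library totals tRNA-Ile-AAT-1 (0.13, adjusted p = 0.0469 by edgeR) and tRNA-Lys-CTT-3 (0.17, adjusted p = 0.0429 by edgeR) passed as higher.

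By amino acid, the nuclear alanine tRNAs moved apart. Of 19 tested out of 34 listed, 8 were higher and 5 lower, with a median of 0.38. The largest rise among them was of tRNA-Ala-TGC-5 (2.80, adjusted p = 8.59e-04 by edgeR), which has a mean under 10 CPM. tRNA-Ala-AGC-7 rose from 5077 and 4833 CPM to 6878 and 6598 CPM (0.44, SE 0.08, adjusted p = 0.00396 by edgeR), while tRNA-Ala-AGC-6, with the same anticodon, fell from 5541 and 5332 CPM to 4310.5 and 3972 CPM (-0.39, SE 0.09, adjusted p = 0.0107 by edgeR). A pair of alanine tRNAs varied more between passages than between lines. tRNA-Ala-AGC-4 was at 24353 and 11058 CPM in Ctrl_1 and 19117 and 8040.0 CPM in Cl_3, and tRNA-Ala-AGC-5 at 4781 and 1635 CPM against 6391 and 2197 CPM. In both lines replicate 1 was more than 2-fold above replicate 2, and neither transcript passed. On library totals the alanine counts were 10 higher and 3 lower, and with nuclear TMM 6 and 6.

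Methionine tRNAs come in an initiator form, which starts every cytosolic protein, and an elongator form for inner positions. Of 4 initiator tRNAs, 2 were lower and 0 higher. The main initiator, tRNA-iMet-CAT-1, was at 18578 and 17298 CPM in Ctrl_1 and 15743 and 16099 CPM in Cl_3 (-0.17, SE 0.06, adjusted p = 0.0478 by edgeR); it missed the threshold on library totals (-0.03) and with RLE scaling (adjusted p = 0.064 by edgeR). The rare tRNA-iMet-CAT-4 was lower under all 4 scalings (-1.44, adjusted p = 0.0221 by edgeR), from only 16 and 14 counts in Ctrl_1 and 6 and 4 in Cl_3. Among 6 elongator tRNAs, 3 were higher and 1 lower. tRNA-Met-CAT-1 rose from 11079 and 10616 CPM to 14494 and 14378 CPM (0.41, SE 0.06, adjusted p = 0.00146 by edgeR), tRNA-Met-CAT-3 (0.72) and tRNA-Met-CAT-4 (0.77) rose too, and tRNA-Met-CAT-2 fell by 0.22 on the log2 scale, a fall that library totals did not keep past the threshold. The selenocysteine tRNA, which reads certain UGA stop codons in selenoprotein messages, was at 1006 and 899.6 CPM in Ctrl_1 and 1472 and 1403 CPM in Cl_3 (0.59, SE 0.16, adjusted p = 0.0209 by edgeR).

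Other families are given by counts, and no family was tested as a whole. For these and the families above, the background was 53 higher and 35 lower of all 175 nuclear transcripts tested. Over all 201 transcripts 26.4% were higher and 24.4% lower. Cysteine had 6 higher and 1 lower of 12 tested (median 0.49), valine 5 and 1 of 11 (0.27), arginine 5 and 3 of 19 (-0.01), threonine 4 and 3 of 12 (0.06) and glutamine 2 and 4 of 9 (-0.23). Scaling moved these counts: on library totals cysteine had 8 higher and 0 lower and glutamine 3 and 2. By the first anticodon base, which pairs with the third base of the codon, 11 of 30 transcripts with A were higher and 7 lower, 17 and 10 of 63 with C, 13 and 5 of 37 with G, and 12 and 13 of 45 with T. Among the leucine, serine and selenocysteine tRNAs, which have a long variable arm, 6 of 28 were higher and 5 lower.

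Within an anticodon, the isodecoders used relatively more in Cl_3 were mostly minor ones. The share of each isodecoder in its anticodon's counts is free of scaling between libraries. Of 169 isodecoders with a tested partner, 46 changed in relative use (27.2%): 40 were used relatively more (23.7%) and 6 relatively less (3.55%) in edgeR's diffSpliceDGE test, spread over 25 anticodons. That test sets each isodecoder against the change of its anticodon's summed counts. It pools the spread over the isodecoders of the anticodon, so its p-values are small. Of the 40, 36 made up under 10% of their anticodon on average, against 85 of all 169 tested, and 1 was the main isodecoder of its anticodon, against 42 of 169. Of the 6 used less, 3 made up under 10% and none was a main isodecoder. A main isodecoder makes up much of the sum it is set against, so it can hardly depart from it. tRNA-Gly-CCC-1 fell from 96.7% and 96.3% of its anticodon to 85.7% and 82.1%. Its relative change was only -0.14 on the natural-log scale and did not pass. The counts by share thus follow in part from how the test is built.

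The 6 with the smallest adjusted p show the sizes. tRNA-Lys-TTT-2 made up 1.77% and 1.62% of its anticodon in Ctrl_1 and 8.01% and 9.47% in Cl_3 (diffSpliceDGE adjusted p = 9.26e-11). tRNA-Gly-CCC-2 went from 0.977% and 1.09% to 6.28% and 7.95%, and tRNA-His-GTG-3 from 0.181% and 0.189% to 1.71% and 2.11% (diffSpliceDGE adjusted p = 3.19e-12 for both). In all of them both Cl_3 libraries were several times above both Ctrl_1 libraries. tRNA-Asn-GTT-1 went from 0.0723% and 0.0622% to 1.06% and 1.49% (diffSpliceDGE adjusted p = 3.19e-12), tRNA-Cys-GCA-4 from 0.223% and 0.229% to 0.933% and 0.939% (diffSpliceDGE adjusted p = 1.15e-12), and tRNA-Ala-TGC-6 from 0.192% and 0.181% to 0.862% and 0.849% (diffSpliceDGE adjusted p = 1.20e-12). The asparagine isodecoder thus stayed a small part of its anticodon after a rise of over 10-fold. In all 6 the mean share was above that of Ctrl_1 in Cl_1 and Cl_2 as well. For tRNA-Ala-TGC-6 it was highest in Cl_2, at 1.32% against 0.855% in Cl_3, and for the others in Cl_3.

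Isodecoders that lost share were not all rare. tRNA-Met-CAT-2 went from 42.9% and 42.6% of elongator methionine counts to 32.1% and 31.5% (diffSpliceDGE adjusted p = 0.0355), tRNA-Arg-CCG-2 from 40.2% and 40.3% to 28.5% and 28.4% (diffSpliceDGE adjusted p = 0.0137), and tRNA-Ser-GCT-2 from 28.8% and 28.8% to 18.3% and 17.8% (diffSpliceDGE adjusted p = 4.28e-04). tRNA-Gly-GCC-1 went from 6.47% and 7.18% to 4.48% and 4.71%, and tRNA-Gln-CTG-4 from 0.0650% and 0.0746% to 0.0111% and 0.0101%. Each of these also had a lower mean share in Cl_1 and in Cl_2 than in Ctrl_1. The means in Cl_1 and Cl_2 were 33.7% and 33.4% for tRNA-Met-CAT-2, 28.4% and 26.8% for tRNA-Arg-CCG-2, and 20.7% and 17.4% for tRNA-Ser-GCT-2. The Arg call was lost without either Cl_3 library, the Gly-GCC call without either of these or replicate 2 of Ctrl_1, and the Met call without any single one. Without replicate 2 of Cl_3, 22 of the 46 calls were left. The call of tRNA-Glu-CTC-2 rests on replicate 1 of Ctrl_1. Its share there was 2.06%, against 0.285% in replicate 2 and 0.288% and 0.320% in Cl_3. Without that library its relative change was 0.065 on the natural-log scale.

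**Figure D3:**
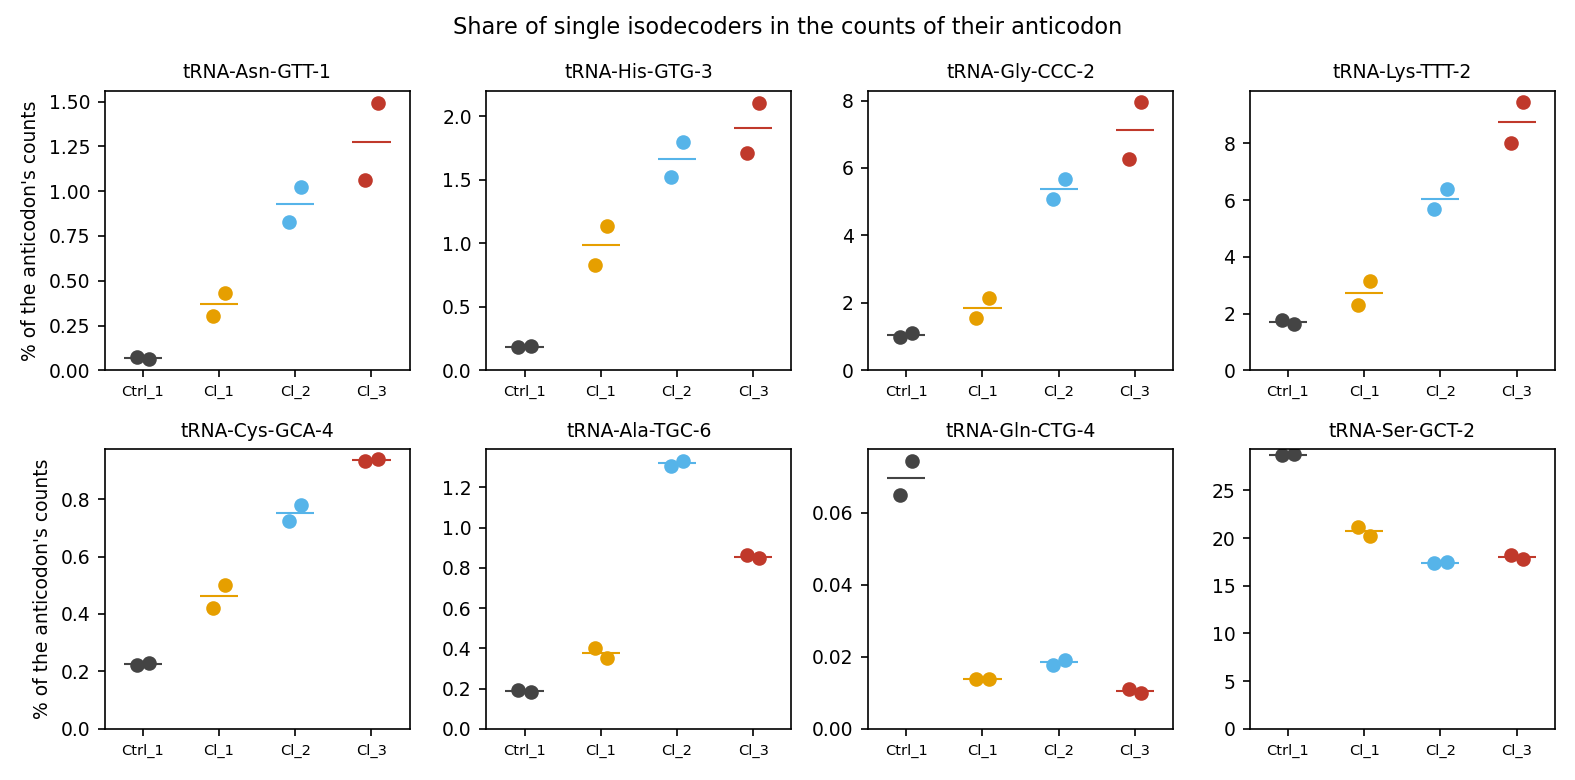
Each panel plots the share of 1 isodecoder in the counts of its anticodon, in percent, for the 2 libraries of each of the 4 fibroblast lines, with a bar at their mean. In 6 panels Cl_3 lies above Ctrl_1, as for tRNA-Lys-TTT-2 at 8.01% and 9.47% against 1.77% and 1.62%, and in the last 2 below it.

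The main isodecoder of an anticodon more often lost than gained share. In 42 anticodons with 2 or more tested isodecoders, the main one had a lower share in both Cl_3 libraries than in both Ctrl_1 libraries in 25 and a higher share in 11, and overlapped in 6; the median difference was -1.61 percentage points. Over all 169 shares, 50.3% were higher and 28.4% lower in this sense. tRNA-Thr-CGT-1 went from 58.5% and 56.6% to 44.6% and 43.9%, tRNA-Gly-CCC-1 from 96.7% and 96.3% to 85.7% and 82.1%, and tRNA-Lys-TTT-1 from 97.9% and 98.1% to 91.5% and 89.9%. These losses were also present in Cl_1 and Cl_2 but smaller. The largest gain in Cl_3 was of tRNA-Arg-CCG-3, an arginine tRNA, from 43.8% and 44.5% to 59.5% and 59.0%. It gained more in the other Cl lines, with mean shares of 61.9% in Cl_1 and 62.3% in Cl_2 against 59.2% in Cl_3. These examples were chosen after their values were seen. Against the same control libraries the main isodecoder was lower in 24 and higher in 10 anticodons in Cl_2, and lower in 15 and higher in 14 in Cl_1; over all 169 shares the figures were 30.2% lower and 45.6% higher in Cl_2, and 34.9% and 35.5% in Cl_1.

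Summing over isodecoders gave one value per anticodon, free of how reads were divided among close copies. Of 70 totals tested, 48 nuclear and 22 mitochondrial, 18 passed (25.7%): 9 were higher (12.9%) and 9 lower (12.9%) in edgeR. The 9 higher ones and 2 of the lower ones were nuclear, and 7 lower ones were mitochondrial. Without replicate 1 of Ctrl_1 or of Cl_3 8 totals passed, and without replicate 2 of Cl_3 9. In 17 of the 42 anticodons with several tested isodecoders at least 1 isodecoder was higher and at least 1 lower. In 15 of these the total did not pass, but totals and isodecoders had different TMM factors. With the factors of the transcripts, the totals of Ala-CGC, Ala-TGC, Arg-ACG, Gln-TTG, Glu-TTC, Gly-CCC, Leu-AAG and Lys-TTT among the 15 passed as lower (adjusted p from 0.00355 to 0.0261 by edgeR). The total of the asparagine anticodon GTT, whose isodecoder 1 rose most of all, did not pass with either set of factors.

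The totals that were higher belong to several amino acids. The arginine anticodon CCG was at 13052 and 12326 CPM in Ctrl_1 and 17955 and 18714 CPM in Cl_3 (log2 change 0.53, SE 0.07). The tryptophan anticodon CCA was at 17796 and 16565 CPM against 22664 and 24416 CPM (0.45, SE 0.06), and the serine anticodon CGA at 6855 and 6684 CPM against 9246 and 8764 CPM (0.41, SE 0.06). These 3 and elongator methionine, at 21189.8 and 20301 CPM against 27195 and 27335 CPM (0.39, SE 0.05), all had an adjusted p of 8.64e-04 in edgeR. Selenocysteine (0.78), Pro-CGG (0.35), Val-AAC (0.29), Leu-TAG (0.26) and Arg-TCG (0.22) passed as well. The 2 nuclear totals that fell were the histidine anticodon, from 24906 and 24202 CPM to 19221 and 17963 CPM (-0.40, SE 0.07, adjusted p = 0.00289 by edgeR), and Val-TAC, from 16813 and 16812 CPM to 14493 and 15352 CPM (-0.17, SE 0.05, adjusted p = 0.0339 by edgeR). The total of initiator methionine did not pass (0.0057, 95% interval -0.14 to 0.16).

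The zero point of these totals differs from that of the single transcripts. TMM on the sums placed all log2 changes 0.19 higher than TMM on the transcripts did. With the factors of the transcript table, an alternative chosen after seeing the data, 5 totals were higher and 32 lower. The 5 were Arg-CCG, Trp-CCA, Ser-CGA, Met-CAT and SeC-TCA, and all 9 lower totals stayed lower. Pro-CGG, Val-AAC, Leu-TAG and Arg-TCG did not pass on that scale.

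**Figure D4:**
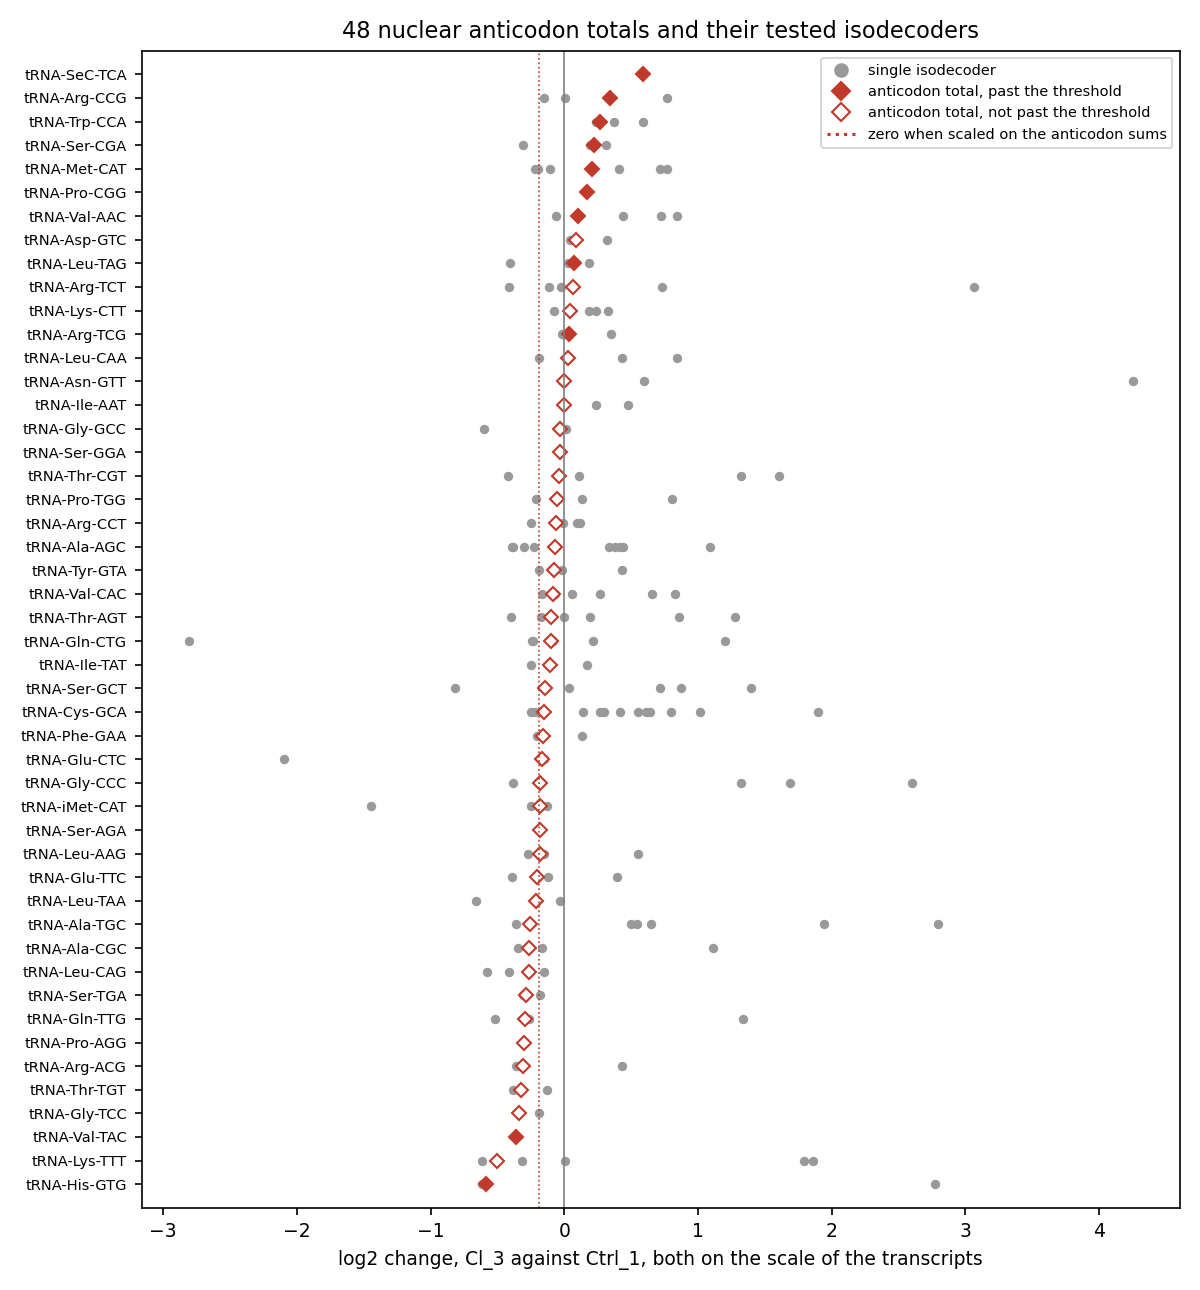
Each row shows a nuclear anticodon, with grey points for the log2 changes of its tested isodecoders in Cl_3 against Ctrl_1. A red diamond marks its total, and all positions are on the scale of the transcript table. Diamonds are filled where the total passed the threshold with TMM on the sums (9 higher and 2 lower). The fill does not give the calls on the plotted scale, where 5 nuclear totals were higher and 18 lower in edgeR. The dotted line, 0.19 left of the solid one, marks zero on the scale set from the sums, and isodecoders spread far more widely than totals.

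What set Cl_3 apart from the other Cl lines was tested as Cl_3 against the mean of Cl_1 and Cl_2, a contrast that leaves out the control libraries. It gave 39 calls (19.4%), of which there were 26 higher (12.9%) and 13 lower (6.47%) of 201 transcripts in edgeR, 38 of them nuclear. mt-tRNA-Ala was the only mitochondrial tRNA among them, at 127 and 104 CPM in Cl_3 against 125 and 160.2 CPM in Cl_1 and 234 and 287 CPM in Cl_2 (-0.74, SE 0.19, adjusted p = 0.0362 by edgeR). Its Cl_3 values overlap those of Cl_1, and the call was lost without any of 5 of the 6 libraries, the exception being replicate 1 of Cl_1. It did not pass against Cl_1 alone (-0.30, adjusted p = 0.326 by edgeR) or Cl_2 alone (-1.17, adjusted p = 0.0551 by edgeR). The number of calls rests on single libraries: it was 13 without replicate 1 of Cl_2, 22 without its replicate 2, 17 without replicate 1 of Cl_3, and 1 without replicate 2 of Cl_3, tRNA-Lys-TTT-2 (1.08, adjusted p = 0.0318 by edgeR). Without that library all 39 log2 differences kept their sign.

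Among the 39 the Cl_2 mean lay between those of Cl_1 and Cl_3 in 29. Against Cl_1 alone 52 transcripts passed (25.9%), 34 of them higher (16.9%) and 18 lower (8.96%). Against Cl_2 alone 2 passed (0.995%), 1 higher (0.498%) and 1 lower (0.498%), and 33 of 201 had an unadjusted p under 0.05 in edgeR. The count against Cl_1 was 20 without replicate 2 of Cl_3, and that against Cl_2 was 0 without any single library. tRNA-Lys-TTT-2 stood highest in Cl_3, at 3954 and 4921 CPM against 1139 and 1324 CPM in Cl_1 and 2721 and 2940.2 CPM in Cl_2, and its difference from the mean of both was 1.25 (SE 0.12, adjusted p = 0.00208 by edgeR). Cl_1 was level with the 1328 and 1116 CPM of Ctrl_1. tRNA-Gly-CCC-2 was at 1018 and 1293 CPM against 261 and 358 CPM in Cl_1 and 798 and 920.0 CPM in Cl_2 (1.17, SE 0.16, adjusted p = 0.00505 by edgeR). tRNA-Gln-TTG-2, a minor glutamine tRNA, was at 237 and 333 CPM against 64.6 and 91.3 CPM and 186 and 214 CPM (1.20, SE 0.19, adjusted p = 0.0078 by edgeR). In all 3 the libraries of Cl_3 lay above the 4 of the other lines. None of the 3 passed against Cl_2 alone (adjusted p = 0.0606, 0.308 and 0.318 by edgeR, in this order).

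In several minor isodecoders Cl_1 lay below Ctrl_1 while Cl_3 lay above it. tRNA-Met-CAT-4 was at 505 and 469 CPM in Ctrl_1, 185 and 288 CPM in Cl_1, 531 and 659 CPM in Cl_2 and 726 and 937 CPM in Cl_3 (Cl_3 against the mean of the other 2 Cl lines 1.15, SE 0.20, adjusted p = 0.00879 by edgeR). tRNA-Val-CAC-1, a valine tRNA, was at 459 and 519, 196 and 274, 545 and 641, and 736 and 806 CPM in the same order of lines (1.05, SE 0.15, adjusted p = 0.00595 by edgeR). tRNA-Ala-AGC-10 was at 1521 and 1429, 922 and 961, 1419 and 1392, and 1815 and 1915 CPM (0.70, SE 0.08, adjusted p = 0.00287 by edgeR). In these 3, Cl_1 was lowest and Cl_3 highest of the lines. tRNA-Thr-AGT-5 (1.14) and tRNA-Val-AAC-3 (0.92) were also higher in Cl_3 than in the mean of the others.

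Lower transcripts stood differently to Ctrl_1. In tRNA-Gln-TTG-1, Cl_3 lay below every other line, at 1619.8 and 1582 CPM against 2228 and 2347 CPM in Ctrl_1, 1989 and 1976 CPM in Cl_1 and 2305 and 2177 CPM in Cl_2. Its difference from the mean of Cl_1 and Cl_2 was -0.40 (SE 0.07, adjusted p = 0.0101 by edgeR), and it was the only transcript past the threshold against each of them alone (-0.31 and -0.49, adjusted p = 0.0276 and 0.0422 by edgeR). tRNA-Thr-TGT-3/2 (-0.24), tRNA-Thr-CGT-1 (-0.28) and tRNA-Ala-TGC-2 (-0.24) were likewise lowest in Cl_3. In others Cl_3 was near Ctrl_1 and the other Cl lines stood above. tRNA-Leu-CAA-3 was at 1491 and 1413 CPM in Ctrl_1 and 1614 and 1354 CPM in Cl_3, against 2295 and 2123 CPM in Cl_1 and 1954 and 1881 CPM in Cl_2 (-0.47, SE 0.10, adjusted p = 0.0166 by edgeR). tRNA-Arg-TCG-2 (-0.28) and tRNA-Arg-CCT-2 (-0.28) had the same order, and tRNA-Trp-CCA-5 (-0.25) lay between, above Ctrl_1 (0.25, adjusted p = 0.0209 by edgeR) and below the other Cl lines. Each of these lower calls was lost without at least 1 library.

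**Figure D5:**
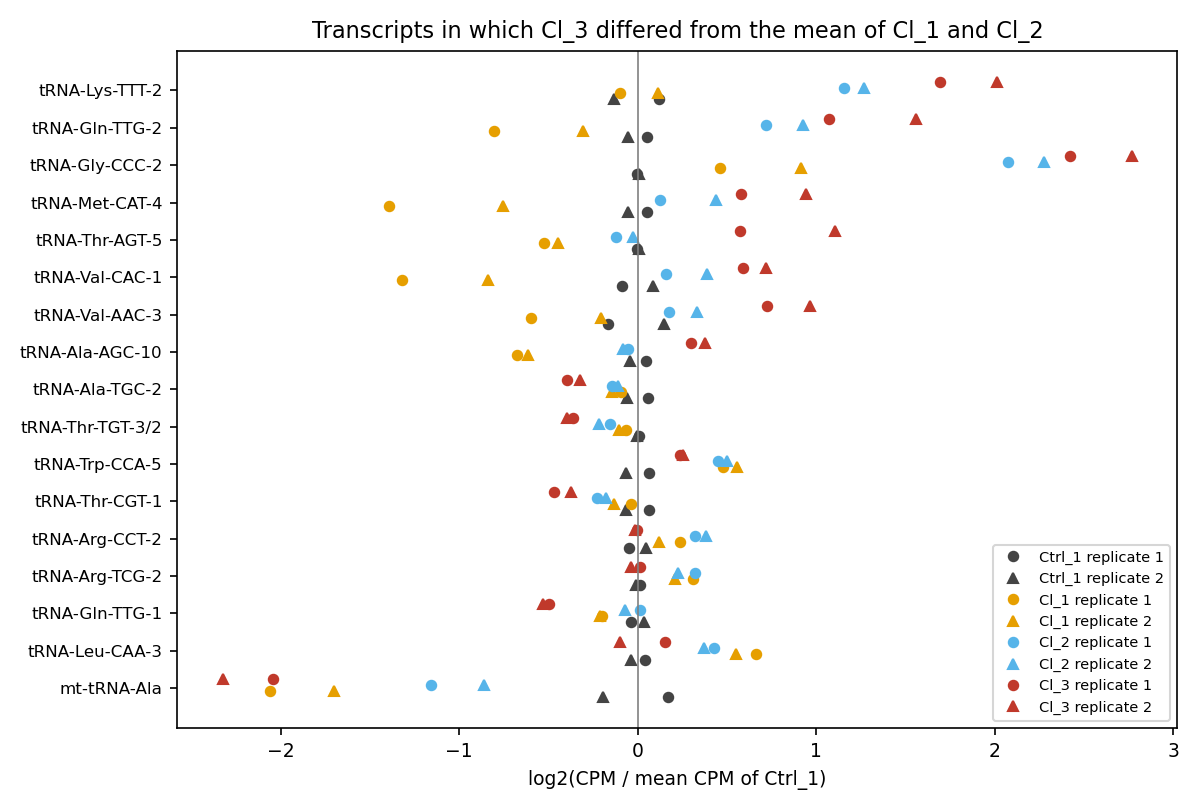
Each row plots a nuclear tRNA named for the contrast of Cl_3 with the mean of Cl_1 and Cl_2, or mt-tRNA-Ala, as log2 of its CPM in each of the 8 libraries over the mean CPM of Ctrl_1. Red Cl_3 points lie right of the blue and orange points in the upper 8 rows, and in tRNA-Leu-CAA-3, tRNA-Arg-TCG-2 and tRNA-Arg-CCT-2 they lie with the dark Ctrl_1 points.

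Among anticodon totals, 1 of 70 set Cl_3 apart from the mean of Cl_1 and Cl_2 (1.43%). The leucine anticodon TAA, which reads UUA codons, was at 10557 and 10459 CPM in Ctrl_1 and 10393 and 10303 CPM in Cl_3, against 8281 and 7913 CPM in Cl_1 and 8577 and 8708 CPM in Cl_2. Cl_3 was 0.31 above the mean of the other Cl lines on the log2 scale (SE 0.04, adjusted p = 0.00173 by edgeR). Against Ctrl_1 the total was at -0.02 in Cl_3 with TMM on the sums and did not pass. Both of its isodecoders contributed in different lines. tRNA-Leu-TAA-1 was at 3579.8 and 3652 CPM in Ctrl_1, 975 and 1046 CPM in Cl_1, 2590.1 and 2874 CPM in Cl_2 and 2226 and 2354 CPM in Cl_3. tRNA-Leu-TAA-2 was at 7755 and 7526 CPM in Ctrl_1, 7286 and 6999 CPM in Cl_1, 5769 and 5767 CPM in Cl_2 and 7593 and 7326 CPM in Cl_3, the only transcript that was higher in Cl_3 than in Cl_2 (0.37, adjusted p = 0.0422 by edgeR). The first isodecoder was thus lowest in Cl_1, but it was also below Ctrl_1 in Cl_3 (-0.66, adjusted p = 0.00109 by edgeR). The other was lowest in Cl_2, and the sum was below Ctrl_1 and Cl_3 in both Cl_1 and Cl_2. On the scale of the transcript table the total of TAA was 0.23 above the others and passed, and 3 other totals were lower. On that scale the total of TAA was lower in Cl_3 than in Ctrl_1 (-0.21, adjusted p = 0.00688 by edgeR).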

How the data were processed

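tRNAs of 8 mouse embryonic fibroblast libraries, 2 for each of 4 lines, were analysed; lines and replicate numbers come from the sample titles, and heart libraries were not used. The authors deposited raw counts per tRNA transcript. Reads were trimmed with cutadapt 3.5 and the genome build is mm39, per the submitters' processing notes; how reads were aligned, counted and divided among close isodecoders was not given in the sources used here. Counts were scaled by TMM, filtered (filterByExpr, minimum count 10, minimum total 15) and tested with edgeR 4.0.16 (limma 3.58.1, R 4.3.3) by quasi-likelihood, with line as factor and Benjamini-Hochberg adjustment over all transcripts at 0.05. Sums per anticodon were tested likewise with their own TMM factors, and isodecoder use with diffSpliceDGE. DESeq2 1.42.0, other scalings, no filter, a replicate block and the omission of each library were alternatives. Scripts were tested on simulated data; plots used matplotlib 3.10.9 (Python 3.11.15).

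Named transcripts are mt-tRNA-Ala, all mitochondrial tRNAs, the 8 nuclear ones per direction with the smallest adjusted p and the 4 with the largest change (mean of at least 10 CPM) for both main contrasts, the 6 most abundant, and 6 anticodons or isodecoder uses per direction; nuclear alanine, methionine and selenocysteine tRNAs were fixed as groups. The members, lists and tests were chosen with earlier results of these data known. The libraries of a line differ beyond counting error, so each was kept as a separate replicate.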

Additional observations from a re-analysis of the deposited data

Results flagged for a closer look

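Differences of Cl_3 from the mean of Cl_1 and Cl_2 that passed edgeR's test of that difference are collected here on the log2 scale, with the transcripts named by the rule. Higher in Cl_3 were tRNA-Lys-TTT-2 (1.25), tRNA-Gln-TTG-2 (1.20), tRNA-Gly-CCC-2 (1.17), tRNA-Met-CAT-4 (1.15), tRNA-Thr-AGT-5 (1.14), tRNA-Val-CAC-1 (1.05), tRNA-Val-AAC-3 (0.92), tRNA-Ala-AGC-10 (0.70) and tRNA-Leu-TAA-2 (0.22). Lower were mt-tRNA-Ala (-0.74), tRNA-Leu-CAA-3 (-0.47), tRNA-Gln-TTG-1 (-0.40), tRNA-Thr-CGT-1 (-0.28), tRNA-Arg-CCT-2 (-0.28), tRNA-Arg-TCG-2 (-0.28), tRNA-Trp-CCA-5 (-0.25), tRNA-Ala-TGC-2 (-0.24) and tRNA-Thr-TGT-3/2 (-0.24). The total of the leucine anticodon TAA was higher (0.31). tRNA-Lys-TTT-2 kept its call in every alternative run, and the leucine total did so too. mt-tRNA-Ala did not pass against Cl_1 alone or Cl_2 alone, and it was also lower than Ctrl_1 in both of those lines.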

How the results depend on the processing

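mt-tRNA-Ala stayed lower in Cl_3 than in Ctrl_1 and past the threshold in all 12 alternatives (log2 change from -2.35 to -1.52, adjusted p up to 0.00567 in edgeR or DESeq2); without single libraries it ranged from -2.35 to -1.98. The transcripts past the threshold numbered 62 to 85 without single libraries, against 102 with all. Mitochondrial calls numbered 8 to 14 without single libraries and 9 (6 higher, 3 lower) when scaled on mitochondrial tRNAs other than Ala. Anticodon totals numbered 8 to 17 without single libraries and 37 (5 higher, 32 lower) with the transcript table's TMM factors, and for Cl_3 against the mean of Cl_1 and Cl_2 4 totals passed on that scale. Transcripts in that contrast numbered 1 to 37 without single libraries, those against Cl_1 20 to 45, and isodecoder uses 22 to 36. Against Cl_2, edgeR gave 1 call with RLE scaling, library totals or nuclear TMM, 8 without the filter and 0 without any single library, DESeq2 gave 15, and 33 transcripts had an unadjusted p under 0.05 in edgeR. The difference in mitochondrial share ran from -1.24 to -0.908 percentage points. tRNA-Ile-AAT-1 turned to 0.13 on library totals, a scaling that moved the median of all transcripts from 0.0013 to 0.14. The relative use of tRNA-Glu-CTC-2 ran from -1.91 to 0.065 on the natural-log scale without single libraries. The value of 0.065 is that without replicate 1 of Ctrl_1, and why that library differed was not tested. With the replicate number as a block, 106 transcripts passed against Ctrl_1, 42 against the mean of Cl_1 and Cl_2, 57 against Cl_1 and 0 against Cl_2, with 24 anticodon totals and 52 isodecoder uses. Deviations of same-numbered libraries correlated by 0.07 to 0.25 across transcripts, above 0.1 in 4 of 6 pairs of lines and at 0.23 for Ctrl_1 and Cl_3; since 2 pairs fell short and the labels do not tie numbers across lines, the numbers were not taken to pair the libraries.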

Other observations

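tRNA-Ala-AGC-4 and tRNA-Ala-AGC-5, chosen after their values were seen, differed between replicate numbers in several lines. tRNA-Ala-AGC-4 was at 24353 and 11058 CPM in Ctrl_1, 24311 and 20080.4 CPM in Cl_1, 20131 and 8990.2 CPM in Cl_2 and 19117 and 8040.0 CPM in Cl_3. tRNA-Ala-AGC-5 was at 4781 and 1635 CPM, 2982 and 3129 CPM, 5012 and 1825 CPM, and 6391 and 2197 CPM in the same order. Replicate 1 lay above replicate 2 by more than 2-fold in Ctrl_1, Cl_2 and Cl_3 for both transcripts, and not in Cl_1.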
